A study of Homo sapiens with 12 samples.

Results

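The 9 genes described here are NFE2L2, KEAP1, HMOX1, NQO1, GCLC, GCLM, TXN, TXNRD1 and SRXN1, the transcription factor NRF2 with its inhibitor and a set of antioxidant genes known as its targets. They were chosen by symbol, with earlier results of these data known, so calls among them are no independent evidence. All 9 were found among the 63299 genes listed in both deposited count tables. The cells were LNCaP-shPRMT5, a line made from LNCaP, an androgen-sensitive human prostate cancer line, with a short hairpin RNA that doxycycline switches on to deplete the arginine methyltransferase PRMT5. Messenger RNA was counted in 12 libraries, 3 in each of 4 groups. Irradiated knockdown cells were given 1 µg/mL doxycycline, renewed every 48 h, and a dose of 2 Gy, with harvest 24 h later. Irradiated control cells received the same dose without doxycycline, non-irradiated knockdown cells received doxycycline alone, and non-irradiated control cells received neither. All 4 groups carried the hairpin, and no doxycycline-treated cells without it were analysed here, so the drug and the loss of PRMT5 cannot be told apart. Irradiated and non-irradiated libraries stood in separate tables, so an effect of irradiation and a difference between the tables cannot be told apart.

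NRF2, encoded by NFE2L2, is the main transcription factor of the response to oxidants and electrophiles. KEAP1 binds it and holds it for ubiquitination by a CUL3 ligase, and oxidants that modify KEAP1 cysteines let NRF2 accumulate, so its activity is set mostly at the protein level. In the nucleus NRF2 pairs with small MAF proteins at antioxidant response elements, where the repressor BACH1 competes with it, most of all at HMOX1. In prostate cancer cells the pathway is known for detoxifying quinones, supplying glutathione and buffering the reactive oxygen that ionizing radiation produces.

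PRMT5 mRNA served as a check of the labels; 27.1% of its exon bases lie opposite an antisense gene. It stood at 24.9 to 31.3 CPM (read counts scaled to the library's total, with TMM factors) in irradiated knockdowns against 187 to 230 CPM in irradiated controls, and at 26.6 to 32.8 CPM in non-irradiated knockdowns against 186 to 198 CPM in non-irradiated controls. The depth per library was 14801939 to 33158865 gene counts. A count of 0 thus allows up to 0.0905 to 0.203 CPM (3 counts over the library's total, without TMM factors, counting error only). LNCaP markers were present throughout, with KLK3 at 1782 to 4078 CPM. Of 12 markers of other cell types, CD3E and COL1A2 were at 0 in every library and TP63, PTPRC, PECAM1 and CHGA had at most 1 count in any library. VWF was at 6.07 to 49.3 CPM, COL1A1 at 11.5 to 22.9, KRT14 at 0.732 to 4.96 and COL3A1 at 0.239 to 2.88 CPM, and LYZ had at most 10 counts. KRT5, a basal keratin, had 153 counts (8.44 CPM) in non-irradiated knockdown replicate 1 and 81 (5.09 CPM) in non-irradiated control replicate 1, against at most 1 in the other 10 libraries. KRT14, also a basal keratin, had 86 counts in irradiated knockdown replicate 1 and 130 in irradiated control replicate 1, against 21 to 40 elsewhere. The part of these keratins in the results was not tested. Replicate 1 of the irradiated knockdown and replicate 1 of the irradiated control stood apart from the other replicates of their groups. The chi-square per gene was 56.2 and 74.5 for that knockdown library against its group, where the other two knockdowns gave 8.96, and 105 and 130 for that control library, where the other two controls gave 12.5. The irradiation results of the 9 genes are therefore given with and without this pair of libraries. Nothing in the labels ties the replicates to independent cultures. P-values therefore describe variation among the 3 libraries of each group, part of which may be technical. For the knockdown with the replicate number as a block, given below, they describe variation of the knockdown effect between same-numbered pairs instead. That variation may also be partly technical.

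The start-site regions of 4 of the genes show where the core letters of the antioxidant response element do and do not occur near the start site, and they are printed because GCLM and TXN carry the results below while TXNRD1 and KEAP1 hold more than 1 match. RefSeq windows (GRCh38.p14) of 250 bases before to 50 bases after a start site were found for 8 of the 9 genes, 11 windows in all; none was used for HMOX1. The core of the element was searched as TGACNNNGC on both strands, where N is any base, and the AP-1 site as TGACTCA on both strands; a TGACTCA followed by GC would count under both. Capitals mark the core, each sequence is written 5′ to 3′ on the strand of its gene, and positions count from the annotated start to the first capital letter.
GCLM, chr1:93909381-93909680, minus strand: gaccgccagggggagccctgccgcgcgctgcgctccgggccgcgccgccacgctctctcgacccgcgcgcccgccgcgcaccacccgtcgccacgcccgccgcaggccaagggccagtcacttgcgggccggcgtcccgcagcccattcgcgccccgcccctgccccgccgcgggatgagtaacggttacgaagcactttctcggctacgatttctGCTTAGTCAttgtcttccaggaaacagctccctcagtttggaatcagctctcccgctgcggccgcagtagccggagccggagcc
TXNRD1, chr12:104215529-104215828, plus strand: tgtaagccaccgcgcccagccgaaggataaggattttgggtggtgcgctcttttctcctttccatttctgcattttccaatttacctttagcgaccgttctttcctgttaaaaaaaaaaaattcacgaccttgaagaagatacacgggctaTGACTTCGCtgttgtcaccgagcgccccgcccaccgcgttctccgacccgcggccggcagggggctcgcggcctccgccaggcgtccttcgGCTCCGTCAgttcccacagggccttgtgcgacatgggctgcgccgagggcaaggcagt
KEAP1, chr19:10502722-10503021, minus strand: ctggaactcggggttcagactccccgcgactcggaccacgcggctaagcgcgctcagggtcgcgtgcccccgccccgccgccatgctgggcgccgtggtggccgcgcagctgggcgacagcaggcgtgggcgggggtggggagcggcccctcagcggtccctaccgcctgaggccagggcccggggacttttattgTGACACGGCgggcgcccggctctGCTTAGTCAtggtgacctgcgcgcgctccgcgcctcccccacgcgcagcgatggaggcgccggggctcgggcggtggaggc
TXN, chr9:110256458-110256757, minus strand: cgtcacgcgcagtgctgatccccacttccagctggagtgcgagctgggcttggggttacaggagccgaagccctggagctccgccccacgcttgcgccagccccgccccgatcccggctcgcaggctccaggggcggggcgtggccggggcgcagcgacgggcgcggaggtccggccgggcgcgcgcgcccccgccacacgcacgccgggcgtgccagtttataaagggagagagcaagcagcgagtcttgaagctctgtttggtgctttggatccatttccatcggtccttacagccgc
The GCLM window held 1 match at -34, read as TGACTAAGC on the opposite strand. The upstream TXNRD1 window held 2 matches, at -99 on the gene's strand and at -8 on the other. The printed KEAP1 window held 2, at -54 on the gene's strand and at -31 on the other. The match at -31 had the same 9 letters as in GCLM. A second TXNRD1 window held 1 match at -102, a second KEAP1 window held none, and the TXN window held none. In all, 4 of the 11 windows, in 3 of the 8 genes, held the core, against 13.3% of 35116 RefSeq promoter windows of the same length. TGACTCA stood in 0 of the 11 windows and in 4.95% of all. A match is a description of letters, and elements outside these windows were not searched.

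Levels between the genes were compared per length, as TPM, computed from the counts and the deposited gene lengths, which scales each library to the same sum. TXN, the small redox protein that reduces protein disulfides, averaged 431 TPM over the 12 libraries, and TXNRD1, the selenoenzyme that recharges thioredoxin with NADPH, averaged 272 TPM. KEAP1 followed at 91.5 TPM, NQO1 at 67.6, NFE2L2 at 46.9, GCLM at 41.0, HMOX1 at 32.6, GCLC at 9.24 and SRXN1 at 0.509 TPM. In the irradiated knockdowns and in the irradiated controls no neighbours in this order overlapped. In the non-irradiated knockdowns the libraries of TXN and TXNRD1 overlapped, as did those of each neighbouring pair from KEAP1 through NQO1, HMOX1 and NFE2L2 to GCLM. In the non-irradiated controls TXN and TXNRD1 overlapped, and so did neighbours among NQO1, GCLM, NFE2L2 and HMOX1. The place of HMOX1 in this order differed between groups: at 12.7 ± 4.51 TPM in irradiated knockdowns and 13.7 ± 4.33 TPM in irradiated controls it came after GCLM, and at 56.6 ± 19.7 TPM in non-irradiated knockdowns it came before NFE2L2 and GCLM, with 47.6 ± 16.2 TPM and a place after both in non-irradiated controls (SD, n = 3 each). The low SRXN1 level is uncertain, because 85.0% of its exon bases lie on the same strand in a second listed gene, which had 0 counts in all 12 libraries. How reads over both genes were counted is not given in the sources used here.

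**Figure D1:**
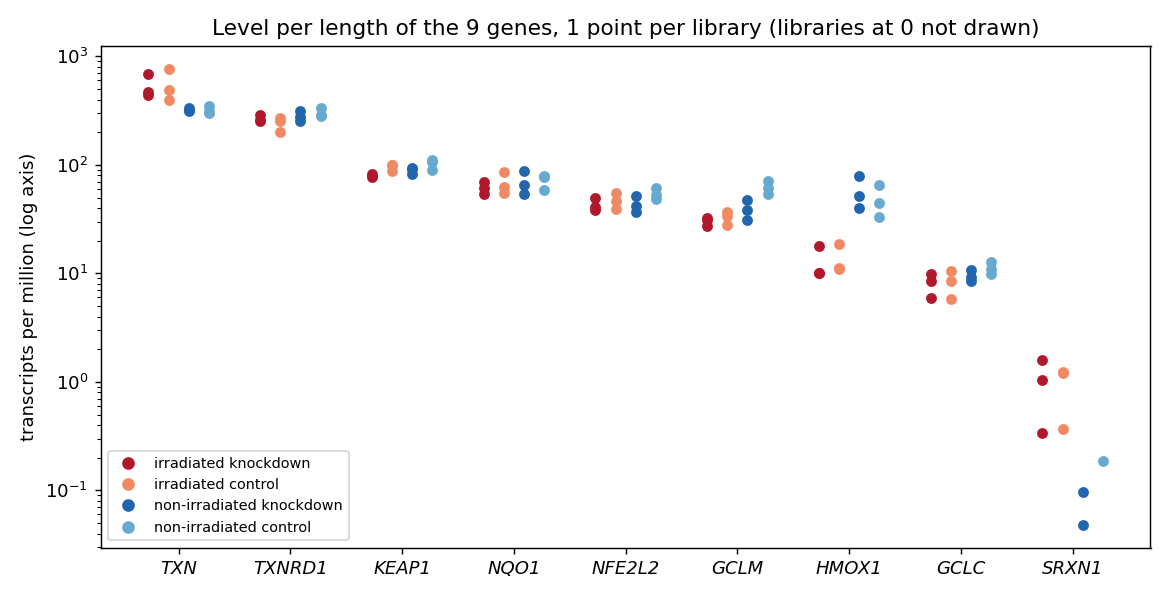
TPM (log axis) of the 9 genes, ordered by their mean, with 1 point per library coloured by group. HMOX1 and SRXN1 are the genes whose irradiated and non-irradiated libraries lie farthest apart; 3 non-irradiated SRXN1 libraries at 0 are not drawn.

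**Figure D2:**
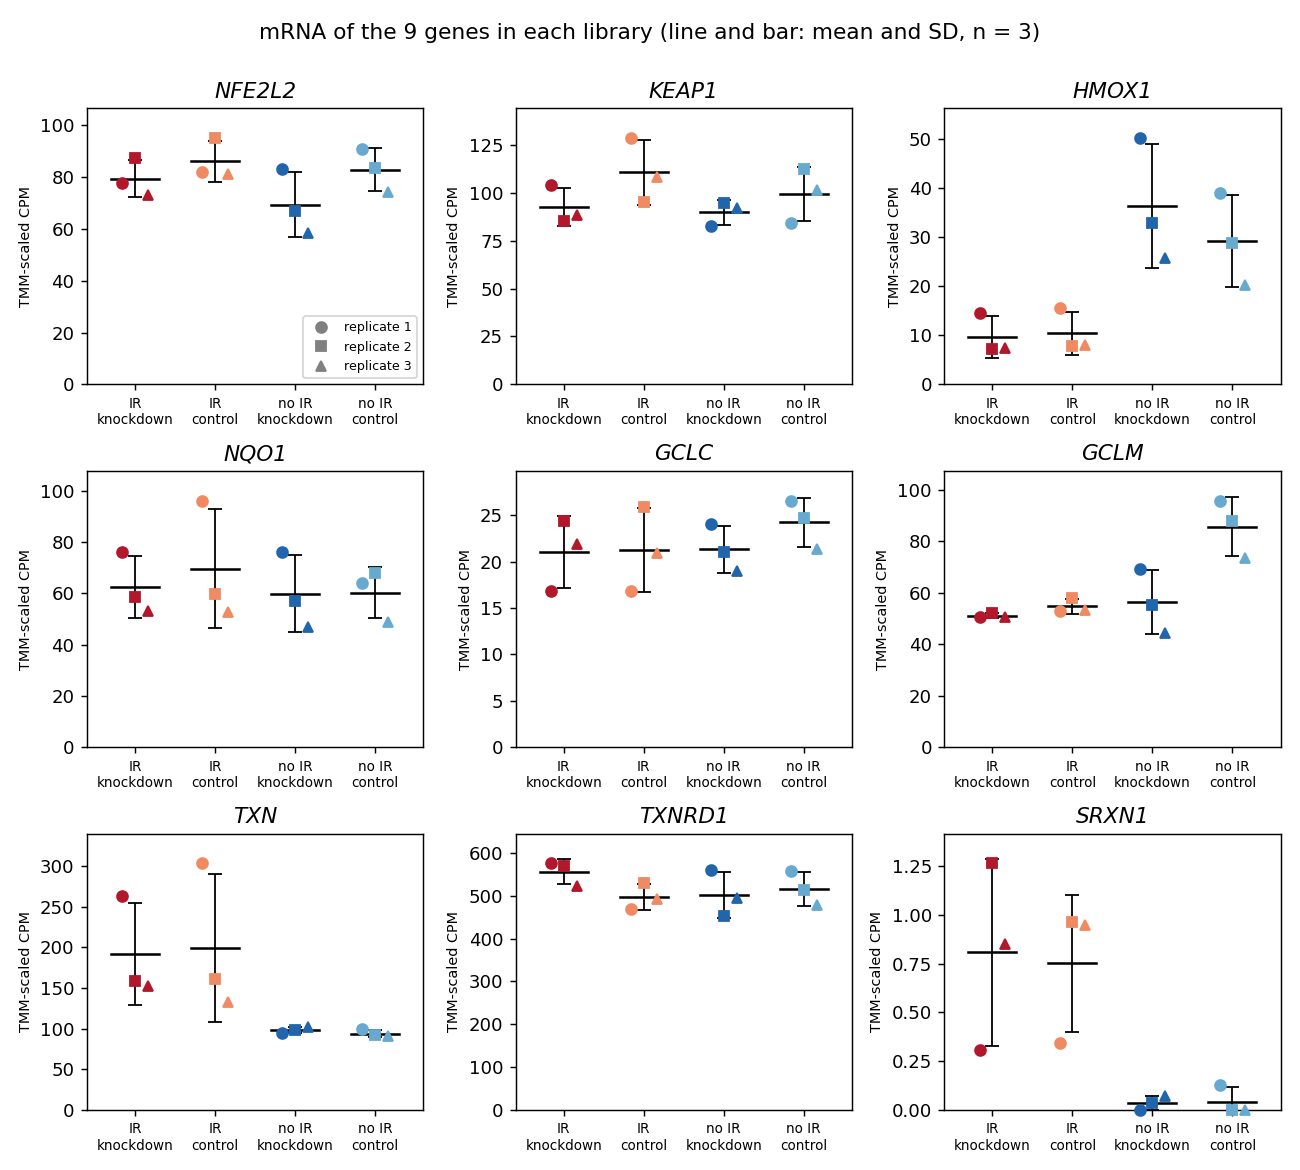
TMM-scaled CPM of each gene in the 12 libraries, with the mean (line) and SD (bar) of each group of 3; IR stands for 2 Gy. The GCLM libraries of the non-irradiated controls lie at 73.4 to 95.9 CPM, above all other libraries, and HMOX1 is at 7.14 to 15.5 CPM in irradiated and 20.2 to 50.2 CPM in non-irradiated libraries.

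Knockdown of PRMT5 was compared with control first without irradiation, on TMM-scaled CPM and with edgeR's quasi-likelihood test across all 17191 genes that passed the filter on low counts. All 9 genes passed it, SRXN1 through its irradiated libraries alone. GCLM was lower in every knockdown library than in any control library, while the groups overlapped for GCLC, its partner subunit. At a Benjamini-Hochberg adjusted p under 0.05, 0 of the 9 genes were called, against 1.54% of all genes, and 1 of the 9, GCLM, had an unadjusted p under 0.05, against 2999 of 17191 genes. DESeq2 called 1 of the 9, GCLM, against 6.01% of all genes. Same-numbered libraries varied together within each table, so the fit with the replicate number as a block is given where it changes a call. That fit called 3 of the 9, GCLM, HMOX1 and NFE2L2, against 27.8% of all genes.

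GCLM encodes the modifier subunit of glutamate-cysteine ligase, which makes the rate-limiting step of glutathione synthesis efficient, and lies on chromosome 1 at 93885205 to 93909456 (GRCh38, minus strand). It had 69.2, 55.2 and 44.5 CPM in non-irradiated knockdown replicates 1, 2 and 3, against 95.9, 87.9 and 73.4 CPM in the non-irradiated controls. The groups did not overlap, which held for 31.1% of all genes in either direction, and the knockdown was lower in each same-numbered pair. The log2 fold change was -0.61 (SE 0.15), or 0.656 times the control, and edgeR's adjusted p was 0.0677. With the replicate block it was -0.62 (SE 0.07), edgeR's adjusted p = 0.000110, and the blocked call held without pair 1, 2 or 3 (adjusted p = 3.55e-10, 0.00933 and 0.00732). Unblocked, GCLM was called without irradiated control replicate 1 (edgeR adjusted p = 0.0302), without non-irradiated knockdown replicate 1 (0.0252) or without both irradiated replicates 1 (0.0133), and with no filter on low counts (0.0444). The exact permutation test on the 6 libraries (2-sided) gave p = 0.1, the smallest that 3 against 3 libraries allow. Against irradiated controls the GCLM libraries of the irradiated knockdowns were also all lower, at 50.5, 52.2 and 50.7 CPM against 52.8, 57.9 and 53.4 CPM, a separation found in 13.5% of all genes in either direction. That difference was small beside its error (log2 fold change -0.10, SE 0.15; edgeR adjusted p = 0.914).

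GCLC, the catalytic subunit of the same enzyme (chromosome 6, 53497341 to 53616970, minus strand), lay between 19.0 and 24.0 CPM in non-irradiated knockdowns and between 21.4 and 26.6 CPM in their controls, and the groups overlapped. GCLC was lower in the knockdown in each non-irradiated pair, with log2 ratios of -0.15, -0.23 and -0.17. Its log2 fold change was -0.18 (SE 0.18; edgeR adjusted p = 0.660), and with the block -0.18 (SE 0.08; edgeR unadjusted p = 0.0390, adjusted p = 0.106). In the blocked fit without pair 1, which called 7272 genes, GCLC was called (adjusted p = 0.0466), and it was not without pair 2 (0.451) or pair 3 (0.373). The ratio of GCLM to GCLC, both in TPM, was followed in every library. It was 4.49, 4.10 and 3.66 in non-irradiated knockdowns against 5.63, 5.55 and 5.37 in non-irradiated controls. In the irradiated knockdowns the ratio was 4.68, 3.34 and 3.62, against 4.89, 3.48 and 3.98 in the irradiated controls. The non-irradiated controls held the 3 highest ratios of the 12 libraries.

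**Figure D3:**
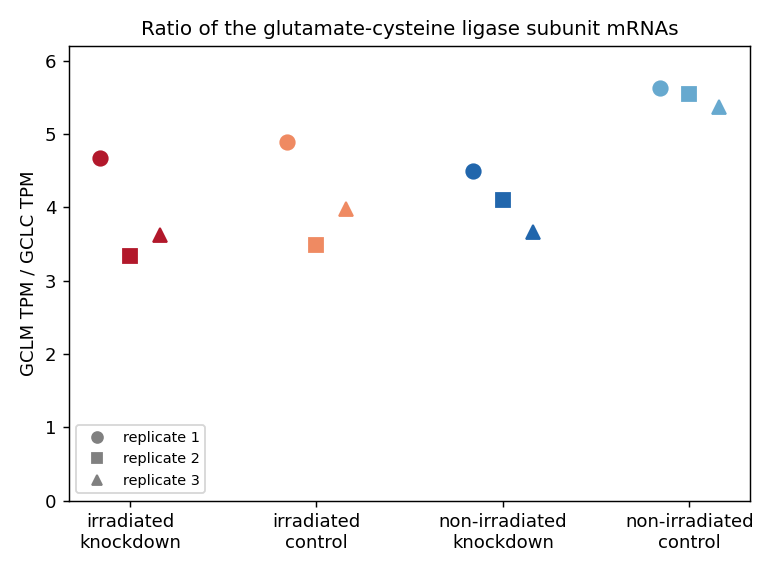
Ratio of GCLM to GCLC TPM in each of the 12 libraries, with the replicate number as the symbol. The non-irradiated controls, at 5.37 to 5.63, lie above the other 9 libraries, at 3.34 to 4.89.

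HMOX1 encodes heme oxygenase 1, which opens heme to biliverdin, carbon monoxide and iron, and lies on chromosome 22 at 35380361 to 35394214 (GRCh38, plus strand). It had 50.2, 33.0 and 25.7 CPM in non-irradiated knockdown replicates 1, 2 and 3, against 38.9, 28.8 and 20.2 CPM in their controls. The groups overlapped, replicate 1 was the highest and replicate 3 the lowest of both, and the knockdown was higher in each pair. Without the block the log2 fold change was 0.31 (SE 0.37; edgeR adjusted p = 0.718), and with it 0.30 (SE 0.08; edgeR adjusted p = 0.0139). The blocked call was lost without pair 2 (adjusted p = 0.0796) or pair 3 (0.164). In the irradiated libraries HMOX1 had 14.6, 7.14 and 7.32 CPM in knockdowns against 15.5, 7.77 and 7.92 CPM in controls. Here the knockdown was slightly lower in each pair, and the log2 fold change was -0.10 (SE 0.38; edgeR adjusted p = 0.975; with the block -0.11, SE 0.09, adjusted p = 0.444). Of all genes, 1.38% were lower in all 3 irradiated pairs and higher in all 3 non-irradiated pairs.

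NFE2L2, which encodes NRF2 itself (chromosome 2, 177227595 to 177392697, minus strand), was lower in the knockdown in all 6 pairs. It had 83.1, 67.03 and 58.3 CPM in non-irradiated knockdowns against 91.0, 83.5 and 74.3 CPM in their controls, and 78.0, 87.3 and 73.2 CPM in irradiated knockdowns against 81.8, 95.2 and 81.3 CPM in theirs. The groups overlapped in both states. The log2 fold change without irradiation was -0.26 (SE 0.14; edgeR adjusted p = 0.380) and with the block -0.27 (SE 0.06; edgeR adjusted p = 0.00970), a call lost without pair 2 (adjusted p = 0.148) or pair 3 (0.169). Of its exon bases 20.9% lie in other listed genes, so its counts are uncertain to that extent. KEAP1, the sensor that restrains NRF2 (chromosome 19, 10486120 to 10503741, minus strand), was likewise lower in all 6 pairs. It had 104, 85.1 and 88.6 CPM in irradiated knockdowns against 129, 95.2 and 108 CPM in their controls, and 82.6, 94.9 and 92.3 CPM in non-irradiated knockdowns against 84.4, 112 and 101 CPM in theirs. Its groups overlapped in both states as well. With irradiation 0 of the 9 genes were called by edgeR without the block, against 0.297% of all genes; 0 of the 9 had an unadjusted p under 0.05, against 1595 of 17191 genes, and DESeq2 called 0 of the 9, against 1.54% of all genes. KEAP1 was the 1 gene of the 9 called with the block, against 11.5% of all genes (log2 fold change -0.25, SE 0.06; edgeR adjusted p = 0.0256; without the block -0.26, SE 0.14, adjusted p = 0.617). This call was lost without pair 2 (adjusted p = 0.162) or pair 3 (0.283). GCLM, NFE2L2 and KEAP1 were the members lower in all 6 pairs, a pattern of 14.4% of all genes.

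Averaged over both irradiation states, the knockdown effect was -0.35 for GCLM (SE 0.11), -0.20 for KEAP1 (SE 0.10) and -0.19 for NFE2L2 (SE 0.10) on the log2 scale. Without the block edgeR called 0 of the 9 genes, against 6.52% of all genes (1 of the 9, GCLM, at an unadjusted p under 0.05, against 3901 genes; DESeq2 called GCLM, against 11.8% of all genes). Their edgeR adjusted p-values were 0.0701, 0.265 and 0.302. GCLM was called without irradiated control replicate 1 (adjusted p = 0.0368), without non-irradiated knockdown replicate 1 (0.0209) or without both irradiated replicates 1 (0.0373). With the block these 3 genes were called (edgeR adjusted p = 0.000201, 0.00579 and 0.00653), against 34.3% of all genes, so calls were about as frequent among all genes as among the 9. The blocked GCLM call held without each pair (adjusted p = 1.25e-08, 0.0146 and 0.00907 without pairs 1, 2 and 3). The KEAP1 and NFE2L2 calls held without pair 1 (adjusted p = 8.88e-05 and 2.08e-05). Without pair 2 they were lost (adjusted p = 0.0714 for KEAP1 and 0.113 for NFE2L2), as they were without pair 3 (0.0933 for KEAP1 and 0.132 for NFE2L2).

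With all 12 libraries the remaining genes gave no call for the knockdown, with or without the block. NQO1, the quinone reductase often read as a marker of NRF2 activity (chromosome 16, 69706996 to 69726951, minus strand), shares 17.7% of its exon bases with genes on the opposite strand. It spanned 52.9 to 76.0 CPM in irradiated knockdowns against 52.7 to 96.2 CPM in their controls, and 46.7 to 76.0 CPM in non-irradiated knockdowns against 48.9 to 68.0 CPM in theirs. Its pairs pointed both ways in each state. Without irradiation the blocked fit without pair 1 called 7272 genes, among them NQO1 (-0.17, SE 0.07, edgeR adjusted p = 0.0361). NQO1 was not called without pair 2 (0.09, adjusted p = 0.671) or pair 3 (-0.0064, adjusted p = 0.986). TXN spanned 95.1 to 102 CPM in non-irradiated knockdowns against 90.5 to 99.4 CPM in non-irradiated controls. TXNRD1 spanned 522 to 576 CPM in irradiated knockdowns against 470.1 to 529 CPM in irradiated controls, and 454 to 559.8 CPM in non-irradiated knockdowns against 479 to 558 CPM in non-irradiated controls. TXNRD1 was higher in the knockdown in each irradiated pair, by 0.29, 0.11 and 0.08 on the log2 scale (log2 fold change 0.16, SE 0.12; edgeR adjusted p = 0.734). The log2 fold changes of NQO1 and TXN in the fit of all 12 libraries without the block lay within their errors: -0.16 (SE 0.24) with and -0.01 (SE 0.25) without irradiation for NQO1, and -0.06 (SE 0.28) with and 0.07 (SE 0.28) without for TXN.

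**Figure D4:**
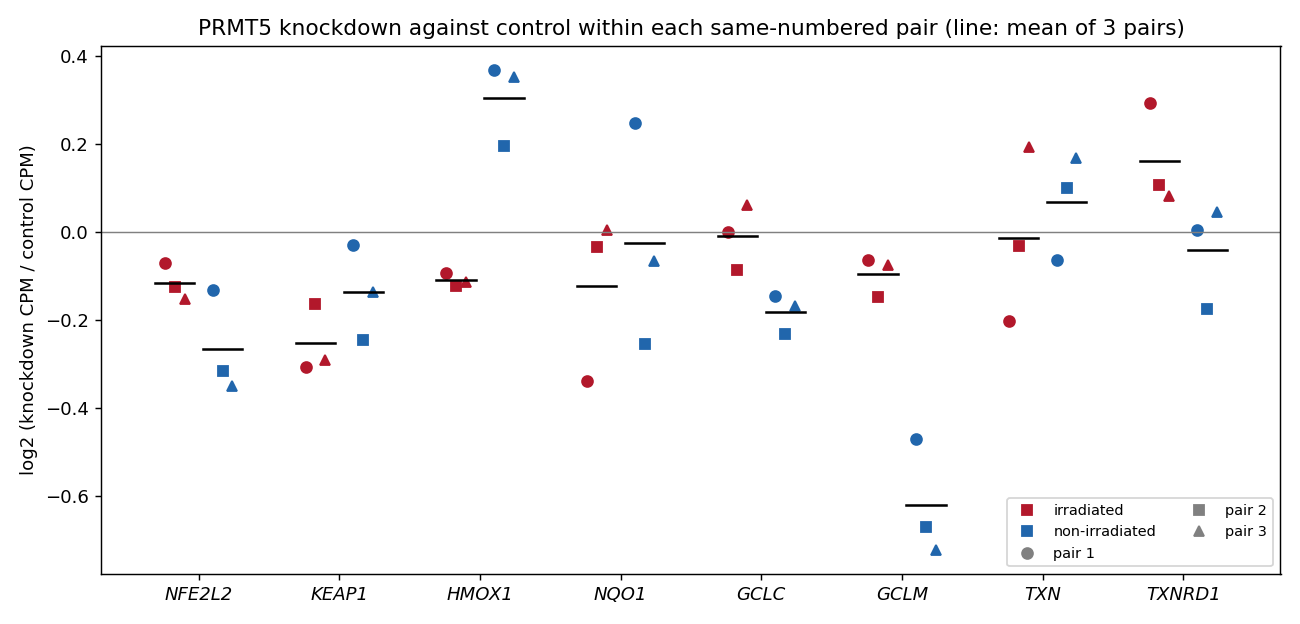
Log2 ratio of knockdown to control CPM in each same-numbered pair of libraries, irradiated at the left and non-irradiated at the right of each gene, with the mean of 3 pairs as a line; SRXN1 is left out for its low counts. GCLM stands lowest without irradiation, at -0.72 to -0.47, and HMOX1 is the gene above 0 in each non-irradiated pair and below 0 in each irradiated pair.

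The difference between the knockdown effect with irradiation and the effect without it was tested directly. For GCLM the fold change with irradiation was nearer 0 (difference of log2 fold changes 0.51, SE 0.21; edgeR unadjusted p = 0.0334, adjusted p = 0.99997), and with the block the difference was 0.52 (SE 0.09; unadjusted p = 0.000138, adjusted p = 0.173). For HMOX1 it was -0.41 (SE 0.53; edgeR adjusted p = 0.99997; with the block SE 0.12, unadjusted p = 0.00417, adjusted p = 0.255). None of the 9 genes was called, nor was any of the 17191 genes in edgeR, with or without the block. At an unadjusted p under 0.05 stood 350 genes without the block and 2093 with it. DESeq2 called 1 gene, none of the 9. The blocked fit without pair 1 called 1410 of 17185 genes, among them GCLM (edgeR adjusted p = 2.50e-05). GCLM was not called without pair 2 (0.627) or pair 3 (0.922). By the test over all genes with all 12 libraries, no difference between the effects passed the threshold for these 9 genes.

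Irradiated and non-irradiated libraries were compared for 8 of the genes by the test. SRXN1 passed the filter on low counts through its irradiated libraries alone, so it is described below by its counts, without a test. The libraries did not overlap for 2 of the 8 in knockdowns, against 29.8% of all genes, and for 3 of the 8 in controls, against 27.6%. HMOX1 was lower and TXN higher in every irradiated library of both, and GCLM was lower in every irradiated control. By edgeR 1 of the 8 was called in knockdowns, HMOX1, against 3.58% of all genes, and 1 of the 8 in controls, GCLM, against 2.26% of all genes. DESeq2 called HMOX1 and TXN in knockdowns, against 8.36% of all genes, and HMOX1, TXN and GCLM in controls, against 8.01%. Without both irradiated replicates 1 edgeR called these same genes, 2 of the 8 in knockdowns against 10.3% of all genes and 3 of the 8 in controls against 4.97%. The comparisons in knockdowns and in controls share no library. They are not independent, because they come from the same fit and tables and same-numbered libraries varied together within each table. Other measures also differed between the tables: the mitochondrial share of counts was 6.55% to 7.43% in irradiated and 5.23% to 6.19% in non-irradiated libraries. The summed CPM of the 12 markers of other cell types was 39.9 to 53.4 in irradiated knockdowns against 32.3 to 42.6 in non-irradiated knockdowns, and 50.1 to 65.5 in irradiated controls against 31.2 to 44.6 in non-irradiated controls, mostly from VWF and COL1A1. The part of these measures in the results was not tested.

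HMOX1 had 14.6, 7.14 and 7.32 CPM in irradiated knockdowns, against 50.2, 33.0 and 25.7 CPM in non-irradiated knockdowns. In controls it had 15.5, 7.77 and 7.92 CPM in irradiated libraries, against 38.9, 28.8 and 20.2 CPM in non-irradiated libraries. All 6 irradiated libraries lay below all 6 non-irradiated libraries, and in both irradiated groups replicate 1 was higher than the other two. The log2 fold change was -1.90 in knockdowns (SE 0.38; edgeR adjusted p = 0.0260) and -1.49 in controls (SE 0.38; edgeR adjusted p = 0.0637, not called). On leaving out both irradiated replicates 1 the values were -2.32 (SE 0.35; edgeR adjusted p = 0.00585) and -1.90 (SE 0.34; edgeR adjusted p = 0.0191). The call in knockdowns was lost with no filter on low counts (adjusted p = 0.0954). It was also lost without non-irradiated knockdown replicate 1 (adjusted p = 0.0704) or 2 (0.0781) and without irradiated knockdown replicate 2 (0.117) or 3 (0.0849), with fold changes of -1.98 to -1.62. The value in controls was called without irradiated knockdown replicate 1 (adjusted p = 0.0355) and with scaling by library size alone (-1.67, adjusted p = 0.0355).

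GCLM had 52.8, 57.9 and 53.4 CPM in irradiated controls, against 95.9, 87.9 and 73.4 CPM in non-irradiated controls, and the groups did not overlap. The log2 fold change was -0.65 (SE 0.15; edgeR adjusted p = 0.0481). The call was lost in a fit of the 6 libraries compared (adjusted p = 0.104). It was also lost on leaving out any 1 of 9 libraries (adjusted p = 0.0698 to 0.161) and held without irradiated knockdown replicate 1 or non-irradiated knockdown replicate 1 or 3. Without both irradiated replicates 1 the change was -0.63 (SE 0.16; edgeR adjusted p = 0.0411). In knockdowns GCLM had 50.5, 52.2 and 50.7 CPM with irradiation, against 69.2, 55.2 and 44.5 CPM without, and the groups overlapped (log2 fold change -0.14, SE 0.15; edgeR adjusted p = 0.639). The 9 libraries that were irradiated, knocked down or both thus spanned 44.5 to 69.2 CPM. The difference between the irradiation effects in knockdowns and in controls is the same contrast as the difference of knockdown effects given above.

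TXN lies on chromosome 9 at 110243811 to 110256640 (GRCh38, minus strand). It had 264, 158 and 152 CPM in irradiated knockdowns, against 95.1, 98.3 and 102 CPM in non-irradiated knockdowns. In controls it had 303, 162 and 133 CPM in irradiated libraries, against 99.4, 91.7 and 90.5 CPM in non-irradiated libraries. Every irradiated library lay above every non-irradiated one, and replicate 1 was the highest of both irradiated groups. The log2 fold change was 0.96 in knockdowns (SE 0.28; edgeR adjusted p = 0.0827) and 1.09 in controls (SE 0.28; edgeR adjusted p = 0.0648), neither of them called. Without both irradiated replicates 1 the changes were smaller and called, at 0.66 in knockdowns (SE 0.10; edgeR adjusted p = 0.00163) and 0.64 in controls (SE 0.10; edgeR adjusted p = 0.00267). With 1 library left out, TXN was called in knockdowns without irradiated control replicate 1 (adjusted p = 0.00906), and in controls without irradiated knockdown replicate 1 (0.0339) or irradiated control replicate 3 (0.0455). Of the 50-base words of TXN, 3.34% occur in other genes, among them the pseudogenes TXNP5 and TXNP6.

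SRXN1 encodes sulfiredoxin, which restores overoxidized peroxiredoxins, and lies on chromosome 20 at 646615 to 653370 (GRCh38, minus strand). It had 8, 36 and 19 counts in irradiated knockdowns, against 0, 1 and 2 counts in non-irradiated knockdowns. In controls it had 9, 31 and 25 counts in irradiated libraries, against 2, 0 and 0 in non-irradiated libraries. The groups did not overlap in either comparison, and no library exceeded 1.27 CPM. Summed over a group, 63 counts of 81150248 stood against 3 of 72267335 in knockdowns, a ratio of 18.7. In controls 65 of 89118288 stood against 2 of 57343465, a ratio of 20.9. These ratios are a description only. Summed reads hide the spread between libraries, and SRXN1 passed the filter through its irradiated libraries alone. The ratios depended on single libraries. In knockdowns the ratio was 34.6 without non-irradiated knockdown replicate 3, which held 2 of the 3 counts of its group, and 12.6 to 25.2 without any 1 of the other 5 libraries. In controls it was 12.6 to 26.8 without any 1 library other than non-irradiated control replicate 1, whose removal left 0 counts in that group and no ratio. Without replicate 1 of the irradiated group it was 25.2 in knockdowns and 26.8 in controls. The part of the second gene over 85.0% of its exon bases in this result was not tested.

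NQO1, GCLC, TXNRD1, NFE2L2 and KEAP1 were not called in either irradiation comparison. Their log2 fold changes lay between -0.02 for GCLC and 0.20 for NFE2L2 in knockdowns, and between -0.19 for GCLC and 0.21 for NQO1 in controls, with standard errors of 0.12 to 0.24. Irradiated and non-irradiated libraries of each of these 5 genes overlapped in both comparisons. NQO1 was highest in irradiated control replicate 1, at 96.2 CPM, one of the libraries that stood apart, and GCLC was lowest in irradiated control and irradiated knockdown replicates 1, at 16.9 CPM in both.

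**Figure D5:**
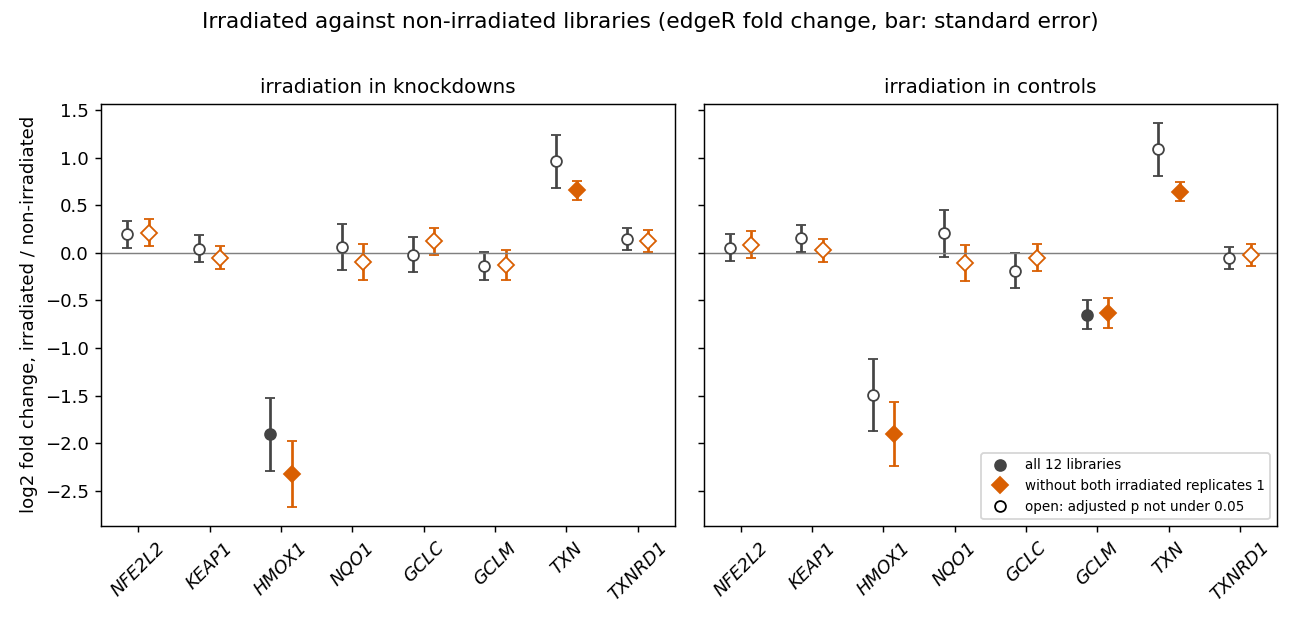
Log2 fold change of irradiated against non-irradiated libraries for 8 genes in knockdowns (left) and controls (right), with standard errors, from all 12 libraries and without both irradiated replicates 1. Filled symbols have an adjusted p under 0.05. Across both fits HMOX1 lies at -2.32 to -1.49, TXN at 0.64 to 1.09, and GCLM at -0.14 and -0.13 in knockdowns and -0.65 and -0.63 in controls.

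Other genes of the pathway were followed in 6 lists, also drawn up with earlier results of these data known. All 10 other NRF2 regulators, among them CUL3, BACH1 and SQSTM1, were tested, and edgeR without the block called 0 of them in any comparison, with medians of -0.08 to 0.02 on the log2 scale against -0.01 to 0.00 over all genes in the 4 comparisons of 2 groups. At an unadjusted p under 0.05, 4 of the 10 passed in each irradiation comparison, against 3600 of 17191 genes in knockdowns and 3740 in controls. In each knockdown comparison and on average 0 passed, against 1595 to 3901 genes. DESeq2 called 1 in each irradiation comparison, against 8.36% of all genes in knockdowns and 8.01% in controls, and 0 for the knockdown. The block has no pairing across the tables. With it MAFG (-0.46 in both) and MAFF (-1.29 in knockdowns, -1.60 in controls) were called lower with irradiation, and NFE2L1 (-0.65) in controls. These fits called 1157 genes in knockdowns and 965 in controls. With the block 3 of the 10 were called for the average knockdown effect, against 34.3% of all genes: PGAM5, a mitochondrial phosphatase that binds KEAP1 (0.43), higher, and BACH1 (-0.20) and SQSTM1 (-0.17), lower. Of 22 other genes of the thioredoxin, peroxiredoxin and glutathione system, 20 were tested. In irradiated against non-irradiated libraries the median of these 20 was 0.23 in knockdowns and 0.35 in controls, with 15 and 16 positive; without both irradiated replicates 1 it was 0.08 in knockdowns and 0.05 in controls, with 11 positive in each. Of them 1 passed the test, PRDX5, in knockdowns, against 3.58% of all genes. PRDX5, a peroxiredoxin, fell in irradiated knockdowns to 167 ± 10.9 CPM against 234 ± 7.75 CPM in non-irradiated knockdowns (SD, n = 3 each). Its log2 fold change was -0.49 (SE 0.11, edgeR adjusted p = 0.0373), and without both irradiated replicates 1 -0.44 (edgeR adjusted p = 0.0235). For the average knockdown effect edgeR called 0 of the 20, against 6.52% of all genes. At an unadjusted p under 0.05 stood 2 of them, against 3901 of 17191 genes, and DESeq2 called 0, against 11.8%. With the block 5 of the 20 were called, a lower share than the 34.3% of all genes. PRDX1 was higher (0.29) and 4 were lower, PRDX4 (-0.28), MGST1 (-0.27), GSTO1 (-0.19) and GGT1 (-0.35). All 7 genes of NADPH supply and 3 superoxide and hydrogen peroxide enzymes were tested. For the average knockdown effect edgeR called 0 of the 7 and 0 of the 3, against 6.52% of all genes. At an unadjusted p under 0.05 stood 2 of the 7 and 0 of the 3, against 3901 of 17191 genes. DESeq2 called 1 of the 7 and 0 of the 3, against 11.8% of all genes. With the block 2 of the 7, ME1 (-0.62) and PGD (-0.23), which make NADPH, and 1 of the 3, SOD2 (-0.15), were lower, again against 34.3% of all genes.

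In the list of quinone, carbonyl and xenobiotic detoxification 10 of 17 genes were tested. NQO2, a quinone reductase related to NQO1, fell in irradiated controls to 39.8 ± 2.22 CPM against 63.1 ± 1.46 CPM in non-irradiated controls (SD, n = 3 each; log2 fold change -0.66, SE 0.14; edgeR adjusted p = 0.0364; without both irradiated replicates 1 -0.72, adjusted p = 0.0124). On average over both states the knockdown lowered 2 of the 10, PIR and NQO2, and raised 1, ABCC1, against 6.52% of all genes called. NQO2 fell by 0.37 on the log2 scale (SE 0.10; edgeR adjusted p = 0.0458). PIR, an iron-binding protein and known NRF2 target, had 35.6 ± 5.73 CPM in irradiated knockdowns against 52.1 ± 11.6 CPM in irradiated controls, and 25.8 ± 2.97 CPM in non-irradiated knockdowns against 42.8 ± 6.44 CPM in non-irradiated controls (average log2 fold change -0.64, SE 0.13; edgeR adjusted p = 0.0151). ABCC1, an exporter of glutathione conjugates, moved the other way, with 310 ± 58.0 CPM in irradiated knockdowns against 228 ± 56.4 CPM in irradiated controls, and 328 ± 25.8 CPM in non-irradiated knockdowns against 202 ± 5.68 CPM in non-irradiated controls (average log2 fold change 0.57, SE 0.12; edgeR adjusted p = 0.0217). In the list of heme and iron handling all 13 genes were tested. FECH, ferrochelatase, the last enzyme of heme synthesis, fell with the knockdown (average log2 fold change -0.61, SE 0.12; edgeR adjusted p = 0.0118). FLVCR1, a heme exporter, rose (0.39, SE 0.08; adjusted p = 0.0198). These 2 of the 13 were called on average, against 6.52% of all genes, and the other 11 were not. With the block 4 more were called, 6 of the 13 in all, against 34.3% of all genes. ALAS1 (0.28) and SLC40A1 (0.44) were higher, BLVRB (-0.29) and BLVRA (-0.19) lower. In the detoxification list the block called 4 of the 10, against 34.3% of all genes, adding CBR3, which rests on 5 to 33 counts per library. CBR3 had 0.334 ± 0.119 CPM in irradiated knockdowns against 1.08 ± 0.162 CPM in irradiated controls, and 0.605 ± 0.202 CPM in non-irradiated knockdowns against 0.572 ± 0.214 CPM in non-irradiated controls (SD, n = 3 each).

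HMOX1 is also known to answer to ATF4, so 8 ATF4 and stress genes were set beside it. Like the other lists, this one was drawn up with earlier results of these data known and is no independent evidence. Their summed CPM was 1342 to 1449 in irradiated knockdowns and 1167 to 3078 in irradiated controls. It was 2216 to 3432 in non-irradiated knockdowns and 4020 to 4322 in non-irradiated controls. Replicate 1 had the most HMOX1 in each group. Its sum was the lowest of its group in irradiated controls (1167, against 3007 and 3078) and irradiated knockdowns (1342, against 1449 and 1434). The same held in non-irradiated controls (4020, against 4322 and 4163). In non-irradiated knockdowns replicate 1 had the highest sum (3432, against 2216 and 2403). The part of ATF4 in the HMOX1 levels was not tested. In irradiated knockdowns 3 of the 8 fell relative to non-irradiated knockdowns, DDIT3 (log2 fold change -1.52), TRIB3 (-1.43) and PHGDH (-1.25), against 3.58% of all genes called. In irradiated controls 3 of the 8 fell relative to non-irradiated controls, DDIT3 (-1.71), TRIB3 (-1.65) and ATF3 (-1.18), against 2.26% of all genes. These genes were also called without both irradiated replicates 1, against 10.3% of all genes in knockdowns and 4.97% in controls. Their values were then -1.53 for DDIT3, -1.53 for TRIB3 and -1.20 for PHGDH in knockdowns. In controls they were -1.43, -1.42 and -0.93 for DDIT3, TRIB3 and ATF3. Without irradiation the knockdown lowered 1 of the 8, ATF3 (-1.37), against 1.54% of all genes called, where HMOX1 was higher in each pair. On average over both states the knockdown lowered 4 of the 8, against 6.52% of all genes called. They were ATF3 (-1.02), TRIB3 (-0.89), DDIT3 (-0.77) and SESN2 (-0.68), all at an edgeR adjusted p of 0.0357 or less. With the block 2 of them, ATF3 and SESN2, were called, against 34.3% of all genes. Proliferation also varied between the libraries: the summed CPM of 12 proliferation genes was 416 to 797 in irradiated knockdowns, 529 to 1162 in irradiated controls, 461 to 879 in non-irradiated knockdowns and 239 to 492 in non-irradiated controls. In irradiated against non-irradiated controls 1 of the 12 was called, CCNB1, against 2.26% of all genes. It was higher (log2 fold change 1.35, SE 0.27, edgeR adjusted p = 0.0301). Without both irradiated replicates 1 CCNB1 was not called (1.28, edgeR adjusted p = 0.0621). Of the 12 markers of other cell types 4 were tested for the average knockdown effect, 2 with positive and 2 with negative fold changes and a median of -0.06. COL3A1, a fibroblast collagen, was the 1 called, against 6.52% of all genes, and was higher in the knockdown (1.86, SE 0.32, edgeR adjusted p = 0.00721). The part of proliferation or of these markers in these results was not tested.

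Among 11188 other genes with a mean of at least 5 CPM, those whose log2 CPM most resembled HMOX1 over the 12 libraries were PPIAP22 (Pearson r = 0.956), TCAF1 (0.952), GTF2IP4 (0.941) and GPR89A (0.939). Those most like NQO1 were COQ10B (0.935), CDC26 (0.924), MPZL1 (0.922) and DDO (0.903). The 12 libraries share tables and replicate numbers, so these values describe likeness only. PPIAP22 and GTF2IP4 are pseudogenes with close copies elsewhere, and their counts are uncertain.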

How the data were processed

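RNA-seq of polyadenylated RNA was analysed in 12 libraries, 3 in each of 4 groups defined by doxycycline and irradiation in the labels. The deposited values are raw gene counts in 2 tables, 1 per irradiation state; per the submitters' processing notes the tools were STAR 2.5, featureCounts, Subread 1.5.3 and edgeR 3.20.8 with GRCh38, while the counting options and strand setting are not stated there or in the file headers. The members and gene lists were chosen with earlier results of these data known.

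The tables were joined by gene, and genes with low counts were removed with filterByExpr (minimum count 10, minimum total 15), which left 17191 genes. A model of group means was fitted to all 12 libraries (8 residual degrees of freedom) with TMM scaling and edgeR 4.0.16's robust quasi-likelihood test in R 4.3.3, with Benjamini-Hochberg adjustment over all tested genes and a threshold of 0.05. Standard errors were derived from the same fit, as the absolute log2 fold change divided by the square root of the test's F statistic. TPM was computed from the counts and the deposited gene lengths. The exact permutation tests used log2(CPM + 0.1). Totals differed up to 2.24 times between libraries, and the biological coefficient of variation was 0.216. Exon overlaps were taken from the tables' coordinates, and 50-base words from GENCODE 29 transcripts. The scripts were tested on simulated counts.

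Deviations of same-numbered libraries from their group means correlated at 0.775, 0.613 and 0.607 in irradiated and at 0.233, 0.255 and 0.296 in non-irradiated cells. Irradiated knockdown 2 with control 3 (0.476) and knockdown 3 with control 2 (0.396) correlated too. The other differently numbered libraries within a state gave negative values. The numbers were therefore taken to pair knockdown and control within a state, and the pairing rests on the titles' numbers and this check. Alternatives were library size scaling, DESeq2 1.42.0, 2 other filters, fits of the 6 libraries compared, the replicate block, and leaving out each library. Fits without both irradiated replicates 1, and blocked fits without a pair, were chosen after seeing the data. Named genes were all 9 members, PRMT5, up to 4 called genes of each list per comparison with the smallest p, and the 4 genes most correlated with HMOX1 and with NQO1.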

Additional observations from a re-analysis of the deposited data

How the results depend on the processing

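Counts of members include SRXN1 where a fit called it, although it passed the filter through its irradiated libraries alone. The replicate block moved the number of genes called to 1974 for the knockdown with irradiation, 4776 without it, 5894 on average, 1157 for irradiation in knockdowns and 965 in controls, and the members called to 1, 3, 3, 3 and 4. Without pair 1 the blocked fit called 5031, 7272, 8172 and 1410 genes (with, without, average, difference), of them 1, 6, 4 and 1 members; without pair 2 it called 137, 1604 and 2346, and without pair 3 it called 192, 1406 and 2525, with 1 member each without irradiation and on average. Across the tables same-numbered libraries correlated at -0.150 to 0.143 and share only a number, so the block adds to the irradiation comparisons the calls of HMOX1 and TXN in controls and of TXN in knockdowns without a pairing in the design. DESeq2 called 265 genes (with), 1034 (without), 2035 (average), 1 (difference), 1438 (irradiation in knockdowns) and 1377 (in controls), with 0, 1, 1, 0, 3 and 4 members. Without both irradiated replicates 1 the counts were 326, 2564, 3378, 0, 1806 and 868, with 0, 1, 1, 0, 3 and 4 members. Fitting only the 6 libraries compared gave 1, 1486, 344 and 64 genes (with, without, irradiation in knockdowns, in controls), with 1 member in knockdowns and 0 in controls. Library size scaling gave 614 genes for irradiation in controls. The median log2 fold change of all genes for irradiation was then -0.150 in knockdowns and -0.157 in controls. With TMM it was -0.0036 in knockdowns and -0.0041 in controls. With no filter on low counts, 592 genes were called for irradiation in controls, 1 member for irradiation in knockdowns (SRXN1, with HMOX1 lost at an adjusted p of 0.0954) and 1 for the knockdown without irradiation; with at least 1 CPM in 6 libraries, 1 member was called in each irradiation comparison.

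On leaving out single libraries the genes called ranged from 4 (without irradiated knockdown replicate 3) to 254 (without irradiated control replicate 1) for the knockdown with irradiation, from 31 (non-irradiated knockdown replicate 2) to 989 (irradiated control replicate 1) without it, from 440 (irradiated knockdown replicate 3) to 2780 (irradiated control replicate 1) on average, from 76 (non-irradiated knockdown replicate 2) to 1489 (irradiated control replicate 1) for irradiation in knockdowns and from 24 (non-irradiated control replicate 3) to 648 (irradiated knockdown replicate 1) in controls. Members called ranged from 0 to 1 for the knockdown without irradiation and on average, from 0 to 3 for irradiation in knockdowns and from 0 to 4 in controls.

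Small fold changes changed sign. With library size scaling the irradiation effect was -0.11 for KEAP1, -0.091 for NQO1 and -0.0018 for TXNRD1 in knockdowns, and -0.0025 for KEAP1 and -0.10 for NFE2L2 in controls. Without both irradiated replicates 1 it was 0.12 for GCLC, -0.051 for KEAP1 and -0.10 for NQO1 in knockdowns and -0.10 for NQO1 in controls, and the knockdown effect of TXN with irradiation was 0.074. With no filter NQO1 was at 0.00147 for the knockdown without irradiation. On leaving out single libraries the irradiation effect in knockdowns ranged from -0.14 to 0.12 for GCLC, -0.28 to 0.022 for GCLM, -0.052 to 0.10 for KEAP1 and -0.10 to 0.25 for NQO1; in controls it ranged from -0.029 to 0.13 for NFE2L2, -0.10 to 0.38 for NQO1 and -0.11 to 0.0058 for TXNRD1. The knockdown effect with irradiation ranged from -0.15 to 0.14 for GCLC, -0.54 to 0.31 for HMOX1, -0.33 to 0.15 for NQO1 and -0.38 to 0.38 for TXN, and without it from -0.22 to 0.14 for NQO1 and -0.12 to 0.031 for TXNRD1. The average effect of HMOX1 ranged from -0.12 to 0.30, and the difference of effects from -0.84 to 0.0022 for HMOX1 and -0.22 to 0.016 for KEAP1. The cause of these changes was not tested. SRXN1 is limited by its counts.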
